A study of Mus musculus with 15 samples.

Results

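The striatum of 14-day-old mouse pups was compared between pups whose mothers had been exposed to an aerosol of paraquat together with titanium dioxide (TiO2) during pregnancy and untreated controls. The comparison rests on 8 of the 15 libraries of the series, 4 of the mixture and 4 controls, chosen by their labels, and covers all 15569 genes of the table. Every library is bulk RNA from the striatum of C57Bl/6J pups at postnatal day 14. The labels call the controls untreated, and the remaining libraries come from paraquat alone (3) and TiO2 alone (4). They give no dose, litter, dam or sex. Nor do they say that each library is a different animal, so the tests reflect no more than the scatter of these samples, part of which may be technical.

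The striatum is the main input nucleus of the basal ganglia, and most of its neurons are inhibitory medium spiny projection neurons that receive glutamate from cortex and thalamus and dopamine from the midbrain. Their firing depends on potassium channels that hold the resting potential and shape the spike, and recent activity is read from immediate early genes, transcription factor genes such as Fos that are switched on within minutes of calcium and cAMP signals. Paraquat is a herbicide that generates superoxide by redox cycling, and TiO2 nanoparticles are a widely used particulate additive.

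The 8 libraries held 8690925 to 9804609 reads each. Mitochondrial transcripts took 19.7% to 21.8% of the signal in controls and 19.1% to 21% in the mixture, a difference of -1.08 percentage points (exact permutation p = 0.171, adjusted over 19 library measures 0.543). The correlation of a library's expression with transcript GC content across genes ran from -0.378 to 0.072 in controls and from -0.277 to 0.0848 in the mixture (exact permutation p = 0.514). Within each group, 2 of 4 libraries carried Xist, the RNA of the inactive X chromosome, above 1000. No pair within a group was a copy, since the chi-square of their reads per degree of freedom was 3.84 to 9.46. The smallest p that 4 against 4 libraries can give in the exact test is 0.0286.

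The libraries carried the markers of striatum, and cortical markers were higher in the mixture libraries, short of the threshold in the main fit. All 18 general markers of medium spiny neurons were measured, and their summed normalised read count was 133499 to 140851 in controls and 116603 to 131446 in the mixture. limma called none of the 18 in the main fit of all 15 libraries. With only the libraries of both groups 1 was called lower, as with TMM or upper quartile scaling or a filter at a mean of 50. The same held after removing a GC trend, with the library number as a block, without control library 2 and by DESeq2. The 13 measured markers of cortical glutamatergic neurons summed to 3638 to 5080 in controls and 5666 to 7210 in the mixture, with 8 of the 13 higher without overlap (as were 4.38% of all genes tested) and none at 0. Slc17a7, the vesicular glutamate transporter of cortical neurons, had normalised read counts of 203, 544, 452 and 479 in control libraries 1 to 4 and 1810, 990, 1150 and 1750 in mixture libraries 1 to 4. Tbr1, a transcription factor of deep cortical layers, had 87, 231, 220 and 260 in controls and 925, 522, 548 and 1090 in the mixture. The groups did not overlap for either gene, but neither passed the test (adjusted p = 0.144 for Slc17a7 and 0.137 for Tbr1). No cortical marker was called in the main fit of all 15 libraries, which called 1.19% of all genes tested. With the library number as a block limma called 2, and after removing a GC trend 1, with or without the block. With only the libraries of both groups 3 were called (242 of 15366 genes tested). By edgeR 3 were called (182 of 15556) and by DESeq2 4 (300 of 15556). The median log2 difference of the cortical list from the control mean was -0.403 to 0.308 in controls and 0.378 to 2.01 in the mixture (exact permutation p = 0.0286, adjusted 0.271). That of the medium spiny list was lower in every mixture library than in every control, with a difference of -0.126 (exact permutation p = 0.0286, adjusted 0.271). Gene results are therefore also given with a cortical score of each library as covariate, an alternative chosen after seeing the data. This score is another measure, the list's mean log2 value in a library minus its mean over all 15 libraries. It was -1.044 in control library 1, -0.356 to -0.24 in the other controls and 0.134 to 0.756 in the mixture. The score is thus confounded with the exposure, and a call lost or kept with it cannot tell them apart. No library was left out of the fit with this score. In bulk samples, fewer cells of a type and less RNA per cell cannot be told apart.

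**Figure D1:**
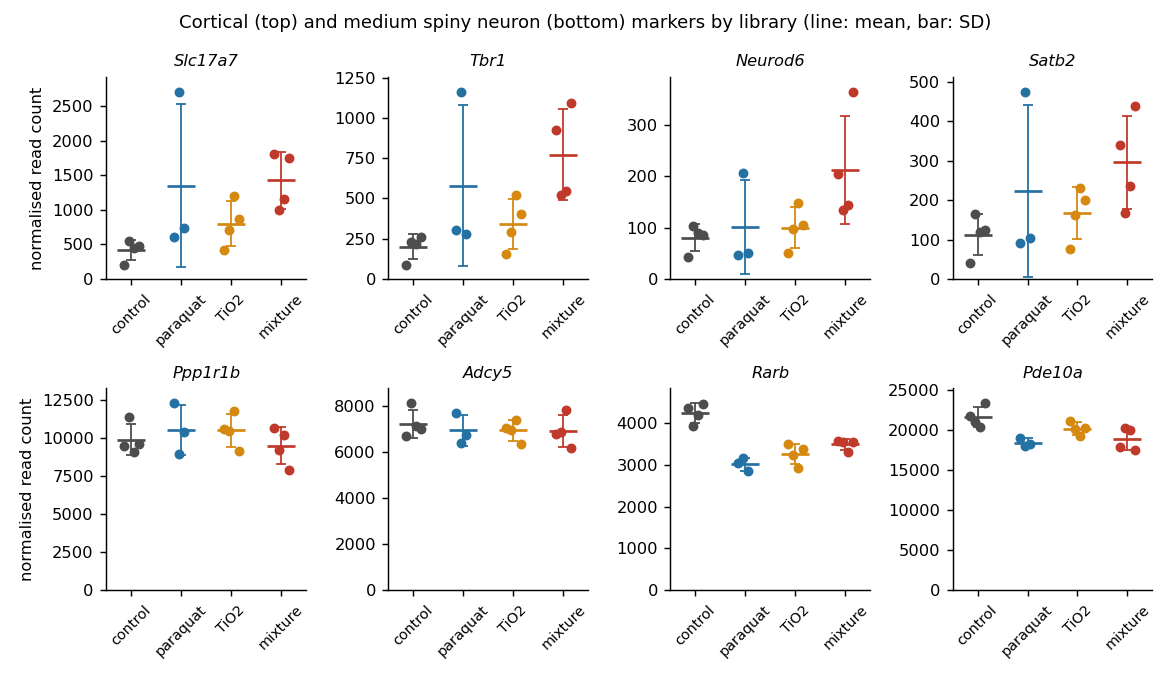
Normalised read counts (y axis, from 0) of 4 cortical markers (top) and 4 medium spiny neuron markers (bottom) in each library of the 4 groups; points are libraries, lines the group means and bars the SD. Slc17a7 lies between 990 and 1810 in the mixture and at most at 544 in controls, while Rarb lies between 3300 and 3570 in the mixture and at 3920 or more in controls.

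The mixture differed from control mostly by genes that were higher. Of 15556 genes tested, 185 were called by limma at a Benjamini-Hochberg adjusted p under 0.05, which is 1.19%. Of these 174 rose (1.12%) and 11 fell (0.0707%), and 1902 genes had an unadjusted p under 0.05. The median rise was small: 0.52 on the log2(value + 1) scale, with 26 of the 174 over 2-fold and 97 under 1.5-fold. The values of the 4 mixture libraries lay wholly above those of the 4 controls for 156 of the 174, and for 681 of all genes tested (4.38%). All 11 that fell lay wholly below, as did 524 of all genes (3.37%), so 7.75% of all genes had groups apart in either direction. With each library left out in turn, 44 of the 185 calls held in all 8 fits, and all 44 were rises. The count was 52 without mixture library 3, 80 to 101 without control 1, 2 or 4 or mixture 1 or 2, and 132 and 164 without mixture 4 and control 3. limma without its trend and robust options called 51, of which 46 were among the 185. With the cortical score as covariate, 23 genes were called, all of them rises among the 185, and no call changed sign. The score does not overlap between the groups, so a call can be lost with little change in the estimate. Fos went from 1.108 to 1.062 on the log2 scale (SE with the score 0.31) and lost its call. Kcnj6 also lost its call and went from 1.557 to 0.645.

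**Figure D2:**
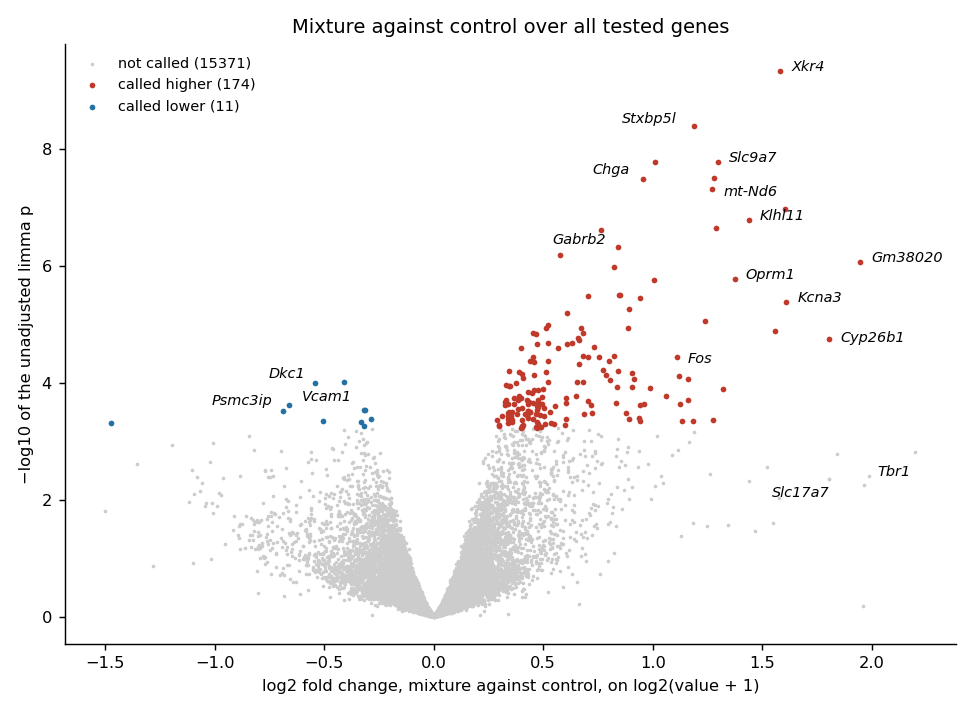
Each point is 1 of the 15556 genes; the x axis is the log2 fold change of mixture against control and the y axis -log10 of the unadjusted limma p. The 174 called rises (red) reach 1.95 on the log2 scale (Gm38020), and the 11 called falls (blue) are fewer and nearer 0 but for 1 gene.

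The best supported rise was Xkr4, a membrane protein of the XK family that is expressed in brain (chr1:3205901-3671498 on GRCm38). Its normalised read counts were 92.2, 57.8, 91.5 and 67.8 in controls and 189, 279, 235 and 222 in the mixture. The lowest mixture library was above the highest control, and the rise was 1.58 ± 0.15 (log2, SE; adjusted p = 7.43e-06). Slc9a7, a sodium/proton exchanger of the trans-Golgi network (chrX:20105754-20291807), had 53.9, 44.4, 38.3 and 32.4 in controls and 74.3, 106, 120 and 121 in the mixture. It rose by 1.30 ± 0.16 (adjusted p = 6.64e-05), with mixture library 1 the lowest of its group and still above every control. Nkain3, which interacts with the sodium/potassium ATPase (chr4:20118874-20778866), had 30.0, 21.7, 23.4 and 26.5 in controls and 51.5, 66.2, 63.5 and 70.9 in the mixture. It rose by 1.28 ± 0.16 (adjusted p = 8.75e-05), again without overlap.

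A pair of regulatory genes rose in the same size range. Klhl11, an adaptor of cullin ubiquitin ligases (chr11:100462614-100472741), had 78.7, 31.0, 37.2 and 36.4 in controls and 117, 133, 108 and 112 in the mixture (log2 rise 1.44 ± 0.19, adjusted p = 0.000294). Control library 1 stood apart from the other controls but stayed below the mixture. Lcor, a ligand-dependent nuclear receptor corepressor (chr19:41482637-41562261), had 55.9, 38.2, 28.7 and 36.4 in controls and 81.2, 125, 102 and 82.3 in the mixture (log2 rise 1.29 ± 0.18, adjusted p = 0.000351). For Xkr4, Slc9a7, Nkain3, Klhl11 and Lcor the call held in all 8 fits that left out a library and with the cortical score as covariate, where the log2 rises were 1.87, 1.503, 1.56, 1.86 and 1.58. Control library 1, the highest control for each of these genes, had the lowest cortical score.

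Potassium channel genes were among the largest rises. Of 24 measured members of the list, 3 rose and none fell, against 1.12% of all genes that rose, and the list's median change was 0.122 on the log2 scale against -0.009 over all genes. Kcna3, the voltage-gated channel Kv1.3 (chr3:107036169-107038070), had 30.0, 10.3, 10.6 and 8.85 in controls and 32.7, 59.7, 41.6 and 39.1 in the mixture. The rise was 1.61 ± 0.27 (log2, SE; adjusted p = 0.00293), and control 1 came close to mixture 1. Kcnj6, the G protein-gated inward rectifier GIRK2 that opioid and other receptors open (chr16:94748636-94997701), had 8.29, 10.3, 17.0 and 13.8 in controls and 34.7, 28.2, 37.5 and 51.4 in the mixture. It rose by 1.56 ± 0.29 (adjusted p = 0.00686) with no overlap. Kcnc2, a Kv3 channel of fast-spiking interneurons, had 136, 153, 138 and 144 in controls and 232, 334, 323 and 320 in the mixture, a rise of 1.06 ± 0.21 (adjusted p = 0.0299) in which mixture library 1 was the lowest of its group.

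The support for these channels differed. The calls of Kcna3 and Kcnj6 held with each library left out, while that of Kcnc2 was lost in 7 of the 8 fits, all but the one without mixture library 1 (adjusted p up to 0.0978). With the cortical score as covariate Kcna3 stayed called at 2.32 (adjusted p = 0.000139), whereas Kcnj6 came to 0.645 (adjusted p = 0.653) and Kcnc2 to 0.738 (adjusted p = 0.531). Control library 1, which stood high among the controls for Kcna3, had the lowest cortical score. The fit with the score was not repeated without that library. Members that did not pass included Kcna1, a Kv1 channel of axons, at 0.50 ± 0.13 (adjusted p = 0.0729), and Kcnd2, the A-type channel Kv4.2, at -0.09 ± 0.08 (adjusted p = 0.691). None of the 19 sodium and calcium channel genes was called, and their median was -0.054.

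Among receptors, the mu opioid receptor gene Oprm1 (chr10:6758506-7038198), which marks the striosome compartment of the striatum, had 30.0, 21.7, 31.9 and 14.7 in controls and 40.6, 73.8, 67.6 and 76.1 in the mixture. The groups did not overlap, and the rise was 1.37 ± 0.22 (log2, SE; adjusted p = 0.00164), held in all 8 left-out fits and with the cortical covariate (1.67, adjusted p = 0.00596). It was the 1 member called of 7 opioid genes, against 1.12% of all genes tested that rose. The other receptors and the peptide precursors did not pass, with Oprk1 at 0.05 ± 0.11, Oprd1 at -0.10 ± 0.15 and Penk, the enkephalin precursor of indirect pathway neurons, at -0.11 ± 0.09. Oprm1 overlaps Ipcef1 on the opposite strand, whose change was 0.75 ± 0.31 (adjusted p = 0.334). The use of strand in counting is not given in the sources used here, so reads shared by such pairs cannot be told apart.

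The GABA-A receptor subunit gene Gabrb2 (chr11:42419757-42629028) had 522, 313, 390 and 446 in controls and 614, 854, 689 and 813 in the mixture. It rose by 0.84 ± 0.12 (log2, SE; adjusted p = 0.000628) without overlap, held in every left-out fit and was 0.941 with the cortical covariate (adjusted p = 0.00875). It was the 1 called of 13 subunit genes, against 1.12% of all genes tested that rose. Gabra4, an alpha subunit of medium spiny neurons, was at -0.14 ± 0.09. Of 22 glutamate receptor genes only Grik3, a kainate receptor subunit, was called, against the same 1.12% of all genes. Grik3 had 505, 572, 533 and 503 in controls and 698, 604, 675 and 712 in the mixture, a rise of 0.35 ± 0.08 (adjusted p = 0.0232) that was lost without control 1 or 4 or mixture 1, 3 or 4 (adjusted p up to 0.0808) and was 0.262 with the cortical covariate (adjusted p = 0.597).

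Cyp26b1, the enzyme that clears retinoic acid (chr6:84571414-84593908), had 16.6, 9.29, 8.51 and 7.86 in controls and 23.8, 24.9, 59.3 and 57.6 in the mixture. Mixture libraries 3 and 4 were the high ones, and mixture libraries 1 and 2 were above every control by a smaller margin. The rise was 1.80 ± 0.32 (log2, SE; adjusted p = 0.00795). It was not called by limma-voom on the recovered reads (adjusted p = 0.0679) or with the cortical covariate, where it was 1.66 (adjusted p = 0.263). In the fit of all 15 libraries no other of the 15 retinoic acid genes was called by limma. Over all genes tested 1.12% rose and 0.0707% fell. Rarb, the retinoic acid receptor that is also a medium spiny neuron marker, had 4360, 3920, 4200 and 4450 in controls and 3570, 3540, 3300 and 3540 in the mixture, wholly below, with a change of -0.28 ± 0.07 (adjusted p = 0.0511). A single gene of the retinoic acid list was called lower with only the libraries of both groups and with TMM or upper quartile scaling. The same held with a filter at a mean of 50, after removing a GC trend, without control library 2 and by DESeq2. The medium spiny list, which also holds Rarb, had 1 gene called lower in the same settings, and it may be the same gene.

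**Figure D3:**
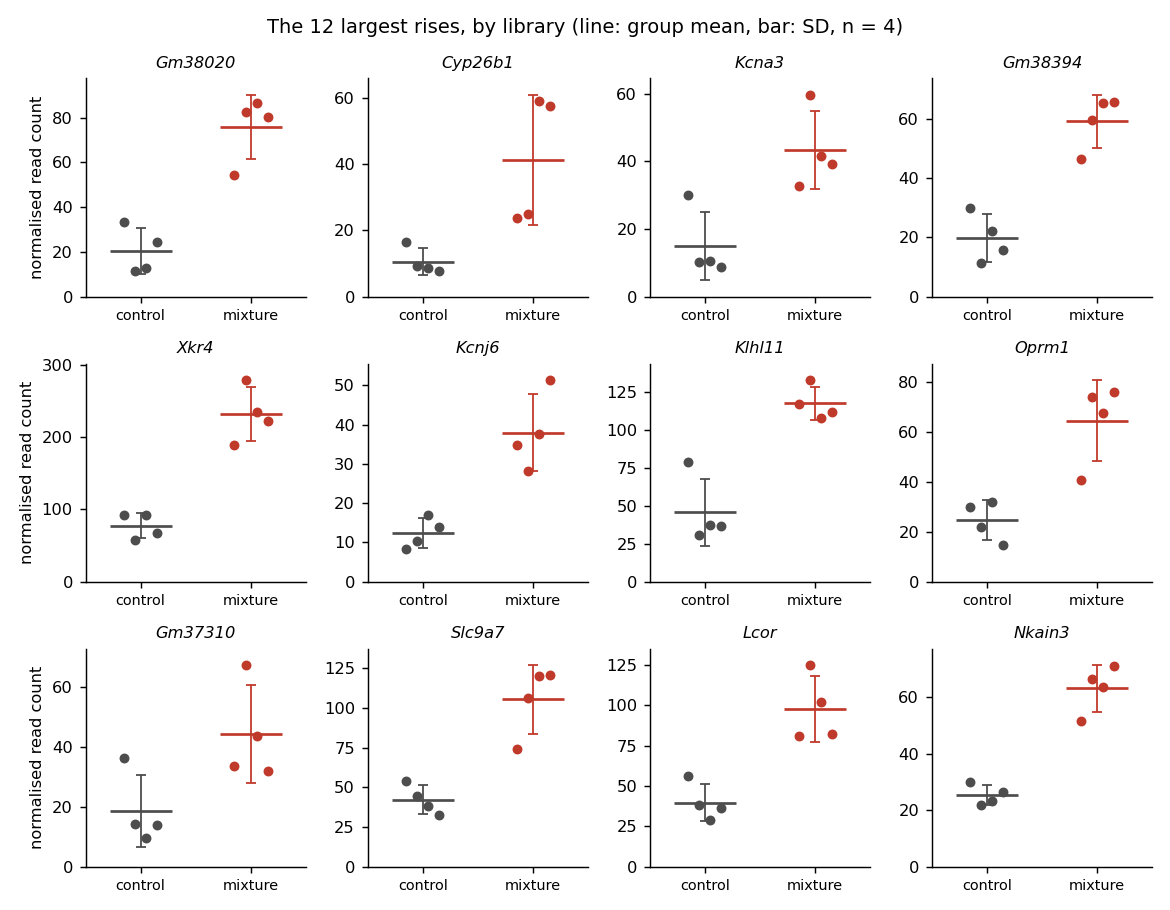
Normalised read counts (y axes, from 0) of the 12 largest called rises with a mean of at least 10, in 4 control and 4 mixture libraries; points are libraries, lines the means and bars the SD. The groups do not overlap except for Gm37310. Control library 1 is the highest control for Gm38020, Cyp26b1, Kcna3, Xkr4, Klhl11, Gm37310, Slc9a7, Lcor and Nkain3. For Kcnj6 and Oprm1 another control is the highest.

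Of the immediate early genes, most had a change above 0 and a few passed the test. Of 19 measured, 3 rose and none fell, against 1.12% of all genes that rose, 17 were above 0 and the median change was 0.471 on the log2 scale against -0.009 over all genes. Without mixture library 1 the median was 0.278 and 1 member was called, and without control library 3 it was 0.309 with 3 called. The 3 were Fos and Fosl2, subunits of the AP-1 transcription factor, and Nr4a3, an orphan nuclear receptor. The 250 bases before the start of Fos and of Nr4a3 are shown because both genes are textbook targets of the cAMP response element binding protein, together with those of Chga, a called gene of secretory granules chosen after its values were seen. They are RefSeq sequences on GRCm38.p6, read 5′ to 3′ on the plus strand, and capitals mark the letters TGACG, the core of the cAMP response element, on either strand.
Fos, chr12:85473640-85473889: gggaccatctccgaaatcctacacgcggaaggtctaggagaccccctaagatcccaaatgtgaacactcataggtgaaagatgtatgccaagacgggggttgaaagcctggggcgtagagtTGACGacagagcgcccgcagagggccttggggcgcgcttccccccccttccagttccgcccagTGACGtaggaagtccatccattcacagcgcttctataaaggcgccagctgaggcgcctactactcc
Nr4a3, chr4:48045055-48045304: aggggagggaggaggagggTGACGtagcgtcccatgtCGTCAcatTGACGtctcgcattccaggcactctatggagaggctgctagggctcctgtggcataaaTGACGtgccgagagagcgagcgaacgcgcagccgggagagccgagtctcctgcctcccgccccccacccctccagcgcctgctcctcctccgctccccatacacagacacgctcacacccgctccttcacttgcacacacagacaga
Chga, chr12:102554691-102554940: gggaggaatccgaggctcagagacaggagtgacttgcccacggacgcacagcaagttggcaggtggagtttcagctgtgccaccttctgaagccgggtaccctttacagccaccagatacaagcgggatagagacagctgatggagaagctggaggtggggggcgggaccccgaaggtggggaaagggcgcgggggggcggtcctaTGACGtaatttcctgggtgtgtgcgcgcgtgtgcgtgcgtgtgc
This core occurs 2 times before Fos, 4 times before Nr4a3 and 1 time before Chga, and not in the same window of Fosl2. It is a short motif, held by 17.8% of 32851 promoter windows of this length. The full element TGACGTCA (1.55% of windows, and each holds the core), the AP-1 motif TGANTCA (6.75%) and the CArG box of serum response factor (1.47%) were searched on both strands and found in none of these 4 windows. Of the 174 genes that rose, 120 have an entry in the promoter table. The share of these 120 with the core was not counted, so a link between the rises and the motif was not tested.

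Fos had normalised read counts of 23.8, 27.9, 20.2 and 31.5 in controls and 64.4, 72.7, 57.2 and 37.0 in the mixture, a rise of 1.11 ± 0.22 (log2, SE; adjusted p = 0.0118). Mixture library 4 was close to the highest control and the other 3 stood clear of it. Fosl2 had 168, 204, 170 and 189 in controls and 317, 276, 291 and 250 in the mixture, a rise of 0.63 ± 0.12 (adjusted p = 0.00869), with no overlap. Nr4a3 had 219, 180, 119 and 172 in controls and 379, 281, 297 and 315 in the mixture, a rise of 0.90 ± 0.18 (adjusted p = 0.0237), also without overlap. The call of Fosl2 held with each library left out, that of Fos was lost without mixture library 1 or 2 (adjusted p up to 0.0546), and that of Nr4a3 without control 2 or 4 or mixture 1, 3 or 4 (up to 0.0735).

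With the cortical covariate none of the 3 was called, while the changes were 1.06 for Fos, 0.559 for Fosl2 and 0.813 for Nr4a3 (adjusted p = 0.295, 0.329 and 0.406). limma without its trend and robust options called none of the list either. Other members were Egr1, a zinc finger factor of synaptic plasticity, at 0.59 ± 0.16 (adjusted p = 0.102), and Arc, which acts at synapses, at 0.56 ± 0.21 (adjusted p = 0.29). Nr4a2 was at 1.96 ± 0.58 (adjusted p = 0.165), with 25.9, 133, 90.4 and 132 in controls and 290, 320, 278 and 387 in the mixture. Npas4, a factor induced by calcium entry, was at -0.15 ± 0.37, and the control libraries spread from 257 to 631 for it. Bdnf, the brain-derived neurotrophic factor and a gene outside the list that was chosen after its values were seen, had 10.4, 23.7, 21.3 and 19.7 in controls and 41.6, 30.4, 42.7 and 50.4 in the mixture. Its rise of 1.13 ± 0.28 (adjusted p = 0.0438) was lost in 7 of the 8 left-out fits and came to 0.188 with the cortical covariate (adjusted p = 0.949).

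A minority of the genes of transmitter release passed the test, with small rises. Of 20 synaptic vesicle genes 4 rose and none fell, against 1.12% of all genes that rose, 18 were above 0, and the median was 0.206 on the log2 scale against -0.009 over all genes. Rab3a, a small GTPase of synaptic vesicles, had 1780, 1950, 2230 and 2070 in controls and 2670, 2520, 2770 and 2430 in the mixture, a rise of 0.38 ± 0.08 (adjusted p = 0.0216). Pclo, a scaffold of the presynaptic active zone, rose by 0.33 ± 0.07 (adjusted p = 0.0232). The groups did not overlap for either gene. Stx1a, a syntaxin of the vesicle fusion complex, rose by 0.60 ± 0.15 (adjusted p = 0.0427). Stx1a had 115, 129, 153 and 143 in controls and 223, 167, 216 and 217 in the mixture, of which mixture library 2 was nearest the controls.

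The number of synaptic vesicle genes called was 0 without control library 2 or mixture library 3 and between 1 and 5 with another library left out. It was also 0 in limma without its trend and robust options. With the cortical covariate it was 0 as well, and the changes were 0.413 for Rab3a, 0.327 for Pclo and 0.18 for Stx1a (adjusted p = 0.262, 0.375 and 0.885). Members that did not pass included Syn1, a vesicle phosphoprotein, at 0.60 ± 0.20 (adjusted p = 0.233), Snap25 at 0.31 ± 0.10 (adjusted p = 0.161) and Unc13a, a vesicle priming factor, at -0.03 ± 0.08 (adjusted p = 0.938).

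A pair of release and secretory genes outside that list kept their calls in more fits. They were chosen after their values were seen, so this stability may follow from the choice and is no added support. Chga, the chromogranin A of dense-core granules, had 402, 422, 418 and 360 in controls and 718, 823, 849 and 723 in the mixture. All mixture libraries were far above all controls, the rise was 0.96 ± 0.12 (log2, SE; adjusted p = 8.75e-05), and it was 1.05 with the cortical covariate (adjusted p = 0.00187). Stxbp5l, a tomosyn that binds syntaxin and restrains release, had 167, 88.8, 105 and 113 in controls and 229, 309, 259 and 265 in the mixture, a rise of 1.19 ± 0.13 (adjusted p = 3.23e-05) that was 1.45 with the covariate (adjusted p = 6.66e-05). Both calls held in all 8 left-out fits. The chromogranin gene Chgb was called too, with a rise of 0.381. Its call was lost in 7 of the 8 fits, and it was 0.277 with the covariate (adjusted p = 0.653).

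Of 34 axon guidance genes 2 rose and none fell, against 1.12% of all genes that rose, with a median of 0.202 on the log2 scale against -0.009 over all genes. Both are netrin receptors of the Unc5 family. Unc5d had 99.5, 79.5, 120 and 100 in controls and 130, 174, 164 and 174 in the mixture, a rise of 0.68 ± 0.13 (adjusted p = 0.00704) that held in all 8 left-out fits and was 0.616 with the cortical covariate (adjusted p = 0.288). Unc5c rose by 0.51 ± 0.13 (adjusted p = 0.0462), a call lost in every left-out fit and at 0.244 with the cortical covariate (adjusted p = 0.797).

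Few genes of the lists tied to the known chemistry of the exposures were called. Of 26 genes of oxidative defence 1 rose and none fell, against 1.12% of all genes that rose and 0.0707% that fell, and the median was -0.042 on the log2 scale against -0.009 over all genes. The 1 was Gstm1, a glutathione S-transferase, with 137, 105, 222 and 145 in controls and 234, 271, 259 and 211 in the mixture. Control library 3 overlapped the mixture, and the rise of 0.72 ± 0.16 (adjusted p = 0.0328) was lost without control 1, 2 or 4 or mixture 1, 2 or 3 (up to 0.115), with only the libraries of both groups, and with the cortical covariate (0.807, adjusted p = 0.282). Hmox1, the heme oxygenase induced by oxidative stress, was at -0.01 ± 0.14, Nqo1 at -0.36 ± 0.22 (adjusted p = 0.549) and Sod2, the mitochondrial superoxide dismutase, at 0.01 ± 0.08. None was called of 13 dopamine system genes (median -0.045), 13 parkinsonism genes (0.08), 12 of the integrated stress response (0.028) or 11 heat shock genes (0.043).

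In the respiratory chain, 1 of 42 nuclear genes and 1 of 7 mitochondrially encoded genes rose, against 1.12% of all genes, a share to which 1 of 42 is near. The mitochondrial gene was mt-Nd6, a subunit of complex I that is encoded on the opposite strand from the other protein genes of the mitochondrial genome. Its counts were 87.0, 43.3, 55.3 and 68.8 in controls and 144, 182, 148 and 132 in the mixture, a rise of 1.27 ± 0.16 (log2, SE; adjusted p = 0.000109) with no overlap. The call held in every left-out fit and was 1.52 with the cortical covariate (adjusted p = 0.000489). It overlaps mt-Nd5, which had a mean of 155400 in controls and a change of -0.06 ± 0.13 (adjusted p = 0.903), and the other members lay between -0.14 and 0.01. The nuclear gene was Atp5d, a subunit of ATP synthase, which rose by 0.50 ± 0.11 (adjusted p = 0.0248), a call lost without control 1 or 4 or mixture 1, 2 or 3 (up to 0.106) and at 0.595 with the covariate (adjusted p = 0.182).

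A few further lists had 1 called member each, where 1.12% of all genes tested rose. Nr1d1, the circadian repressor REV-ERB alpha, had 593, 633, 754 and 724 in controls and 948, 1020, 1010 and 829 in the mixture, a rise of 0.50 ± 0.11 (adjusted p = 0.0306), the only one among 16 clock genes. Col1a1, a fibrillar collagen chain, had 76.7, 117, 73.4 and 75.7 in controls and 118, 149, 212 and 126 in the mixture, a rise of 0.80 ± 0.17 (adjusted p = 0.0206), the only one among 18 collagen and laminin genes. Control library 2 was close to mixture library 1 for it. Each of these calls was lost in 5 of the 8 left-out fits, for Nr1d1 without control 1 or 2 or mixture 1, 2 or 3 (up to 0.108) and for Col1a1 without control 1, 3 or 4 or mixture 2 or 3 (up to 0.0907). With the cortical covariate neither was called, at 0.61 for Nr1d1 and 1.01 for Col1a1 (adjusted p = 0.174 and 0.106).

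In the fit of all 15 libraries limma called no member of the lists of glia, vessels, ependyma or blood. Of all genes tested 1.12% rose and 0.0707% fell. In lists of this size the absence of a call is near that share and does not show that they are unchanged. All 19 myelin genes were above 0 with a median of 0.213, but their summed count of 50159 to 73264 in controls overlapped the 58199 to 97352 of the mixture. The myelin median was 0.058 without control library 3, 0.136 and 0.141 without mixture libraries 2 and 3, and 0.324 without mixture library 4. The medians were 0.166 for 12 genes of oligodendrocyte precursors, 0.091 for 15 astrocyte genes and -0.079 for 17 microglial genes. Of 18 interferon and antigen presentation genes, 17 were below 0 with a median of -0.442, and none was called. Ifit1, an interferon-induced RNA-binding protein, was highest in control library 4 and had 15.5, 40.2, 11.7 and 102 in controls and 6.93, 22.8, 9.36 and 6.17 in the mixture (change -1.499 ± 0.55, adjusted p = 0.253). Without control library 4 the median of the list was -0.213.

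**Figure D4:**
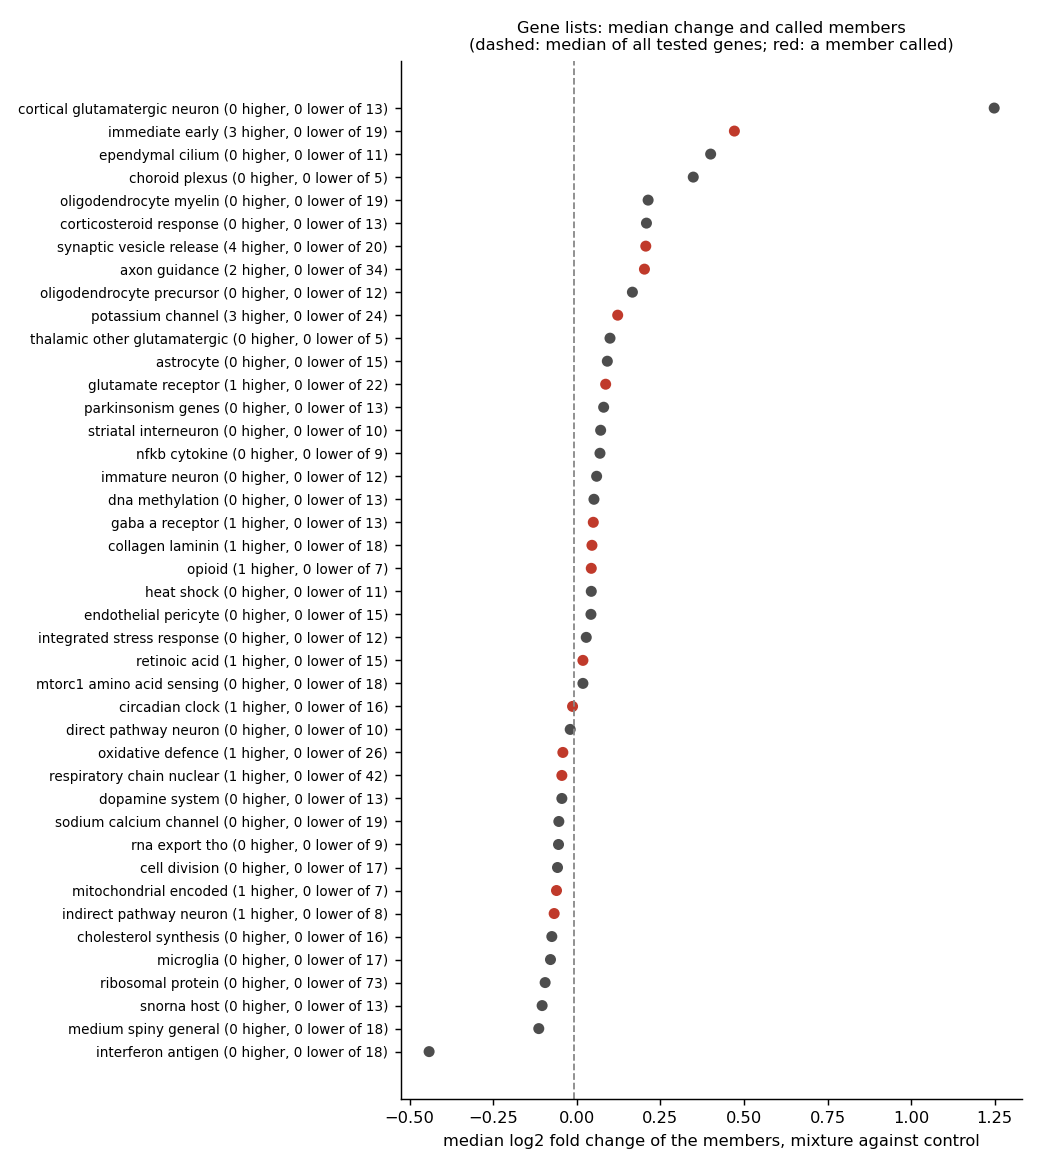
Median log2 fold change (x axis) of the tested members of each gene list, mixture against control, with the number of members called beside each name; red marks lists with a called member and the dashed line the median of all genes, -0.009. The cortical list lies highest at 1.248 with no member called, the immediate early list at 0.471, and the interferon list lowest at -0.442.

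The falls were fewer and had less support. Psmc3ip, a cofactor of meiotic recombinases, had 48.7, 65.0, 58.5 and 60 in controls and 32.7, 31.5, 40.6 and 38.0 in the mixture, a change of -0.69 ± 0.16 (log2, SE; adjusted p = 0.0373). Dkc1, the pseudouridine synthase dyskerin of box H/ACA ribonucleoproteins and telomerase, had 132, 120, 119 and 125 in controls and 93.1, 80.3, 80.1 and 86.4 in the mixture, a change of -0.54 ± 0.12 (adjusted p = 0.0216). Vcam1, a vascular and astroglial adhesion molecule, had 1210, 1310, 1300 and 1280 in controls and 996, 937, 1090 and 1060 in the mixture, a change of -0.32 ± 0.08 (adjusted p = 0.0373). All 4 mixture libraries were below all 4 controls for each of these genes.

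The other named falls were Spcs1, a signal peptidase subunit, at -0.33 ± 0.08, Pbx3, a homeodomain factor, at -0.31 ± 0.07, Smpdl3a, a phosphodiesterase related to acid sphingomyelinase, at -0.32 ± 0.08, and Tnfrsf19, the receptor TROY, at -0.29 ± 0.07. The processed pseudogenes Gm15772 and Gm10254 were at -0.66 ± 0.15 and -0.50 ± 0.12, and the noncoding transcript Gm17494 at -0.41 ± 0.09. Reads of a processed pseudogene can come from its parent gene, so these values are uncertain. None of the 11 falls stayed called in all 8 left-out fits or with the cortical covariate. The named falls were lost in 3 to 8 of the fits, with adjusted p up to 0.118 for Psmc3ip (all but the fit without control 1), 0.0798 for Dkc1 (without control 1 or 4 or mixture 2 or 3) and 0.135 for Vcam1 (all 8), and with the covariate their changes were -0.815, -0.457 and -0.302 (adjusted p = 0.263, 0.493 and 0.493).

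The genes that rose differed in build from the rest. Their median transcript GC content was 52.1% against 49.2% over all genes tested, their median transcript length 3968 bases against 3276 and their median gene span 41.3 kb against 21.6 kb. Protein-coding genes made up 94.3% of them against 85.2%, and their median control mean was 230 against 160. These are descriptions with no test. Of 356 tested gene models of class TEC, models that GENCODE sets aside to be experimentally tested, 7 rose and none fell, which is 4.02% of the rises against 2.29% of all genes.

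Each of the 7 lies inside a longer tested gene on the same strand, and none of the 7 hosts was called, where 1.19% of all genes tested were. How many of all 356 TEC models lie inside such a gene was not counted. Neither count is therefore a result about TEC models. The largest rise among the called genes was one of these 7. Gm38020 (chrX:103576426-103581101), inside the noncoding gene Ftx near Xist, had 33.2, 11.4, 12.8 and 24.6 in controls and 54.5, 82.4, 86.4 and 80.2 in the mixture, a rise of 1.95 ± 0.27 (log2, SE; adjusted p = 0.00095), against -0.09 ± 0.11 for Ftx (adjusted p = 0.821). Gm37310, inside the astrocytic glutamate transporter gene Slc1a3, had 36.3, 14.4, 9.58 and 13.8 in controls and 33.7, 67.3, 43.7 and 31.9 in the mixture, overlapping through control library 1. It rose by 1.32 ± 0.29 (adjusted p = 0.0248) against -0.13 ± 0.07 for Slc1a3 (adjusted p = 0.476), a call lost without control 2, 3 or 4 or mixture 2 or 3 (up to 0.0925). Gm38394, a protein-coding model (chr1:133619940-133661318), rose by 1.60 ± 0.22 (adjusted p = 0.000211) and shares its strand and interval with Zc3h11a, an mRNA export factor that itself rose by 0.70 ± 0.12 (adjusted p = 0.00257). How reads were shared between such genes is not given in the sources used here, so these values are uncertain.

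Each single exposure was measured against the same 4 control libraries, so the values for the 3 exposures are not independent and are given side by side. The 174 genes that rose in the mixture had a median change of 0.52 in the mixture, 0.61 in paraquat alone and 0.53 in TiO2 alone, on the log2 scale. Over all genes 1617 were called against control in paraquat and 996 in TiO2. Xkr4 was at 1.58 ± 0.15 in the mixture, 1.64 ± 0.16 in paraquat and 2.09 ± 0.15 in TiO2. Oprm1 was at 1.37 ± 0.22, 1.51 ± 0.23 and 2.02 ± 0.22 in the same order. Kcnj6 was at 1.56 ± 0.29, 1.51 ± 0.31 and 0.78 ± 0.29, with paraquat library 2, at 70, the highest of all. Fosl2 was at 0.63 ± 0.12, 0.14 ± 0.13 and 0.49 ± 0.12.

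**Figure D5:**
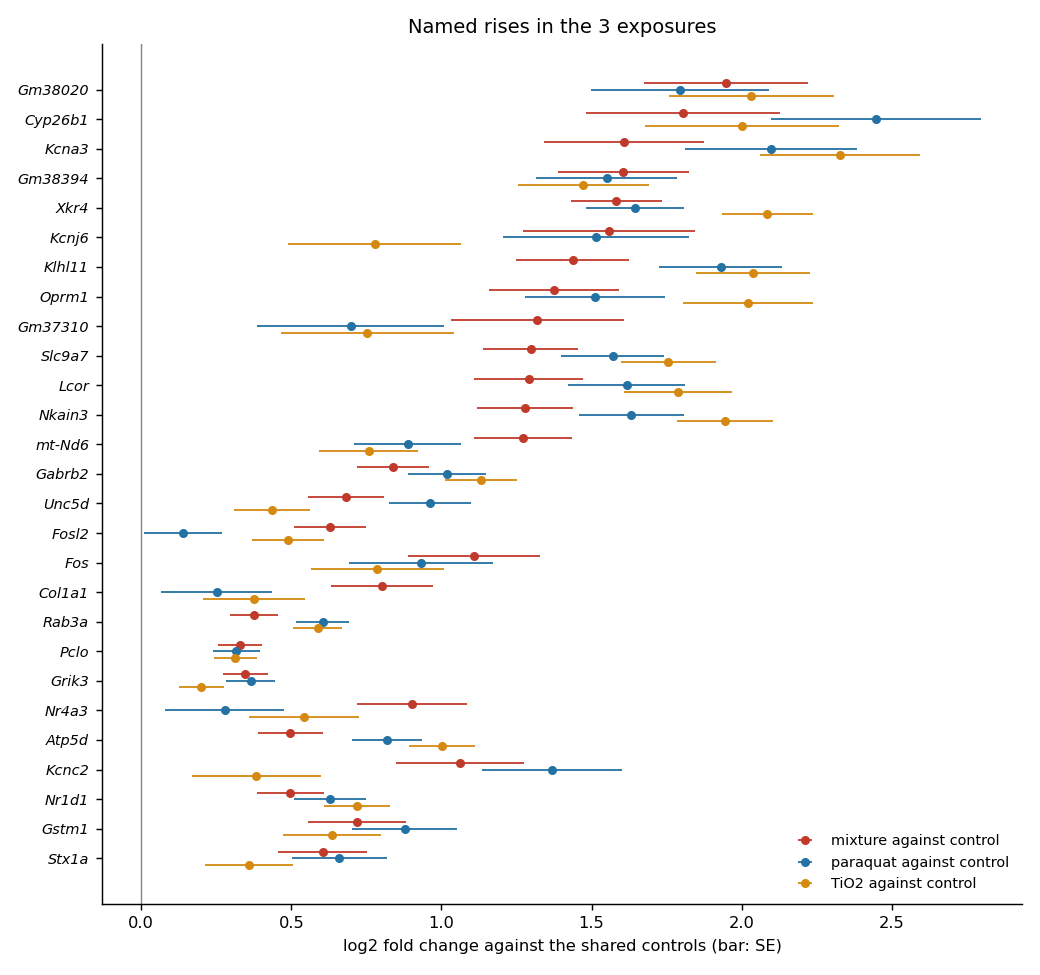
Log2 fold change against the shared controls (x axis; bars are the SE of the limma fit) of the 12 largest rises and further called list members for the mixture, paraquat and TiO2. Xkr4 lies at 1.58, 1.64 and 2.09, and the 3 exposures share the 4 control libraries.

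The mixture was also tested directly against each exposure alone, at doses the labels do not give. Against paraquat 1 gene of 15556 was called (0.00643%), and 2235 had an unadjusted p under 0.05. Against TiO2 none was called by limma (0%), 1768 had an unadjusted p under 0.05, and edgeR called 0 as well. Without TiO2 library 4 limma called 14, and 0 without any other library. A p that misses the threshold does not show that the exposures act alike: the mixture minus paraquat difference of Xkr4 was -0.06 ± 0.16 (log2, SE; adjusted p = 0.897) and its mixture minus TiO2 difference -0.50 ± 0.15 (adjusted p = 0.233).

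The 1 gene was Dbpht2, listed as a long noncoding RNA (chr12:74296668-74302008). It had 985, 944, 970 and 970 in controls, 1010, 933, 821 and 1100 in the mixture, 631, 711 and 604 in paraquat, and 725, 756, 743 and 772 in TiO2. The mixture libraries straddled the controls (-0.01 ± 0.08, adjusted p = 0.979) and all lay above the paraquat and TiO2 libraries. The mixture minus paraquat difference was 0.57 ± 0.09 (adjusted p = 0.0158) and the mixture minus TiO2 difference 0.36 ± 0.08 (adjusted p = 0.141). The call against paraquat was lost without mixture 1, 2 or 4 or paraquat 1 or 3 (up to 0.252). Thoc2, a subunit of the THO mRNA export complex, was at -0.20 ± 0.09 in the mixture (adjusted p = 0.363), -0.58 ± 0.10 in paraquat and -0.51 ± 0.09 in TiO2. Rragb, a Rag GTPase of amino acid sensing at the lysosome, was at -0.12 ± 0.08 (adjusted p = 0.587), -0.40 ± 0.09 and -0.48 ± 0.08, and the differences of the mixture from either exposure did not pass for Thoc2 (adjusted p = 0.165 and 0.233) or Rragb (0.194 and 0.141).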

How the data were processed

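RNA of striatum was sequenced in 15 libraries. Per the labels' protocols, libraries were made with a Lexogen SENSE total RNA kit and sequenced on an Illumina NextSeq500. The authors deposited 1 table of normalised signal: each value is a whole number of reads over the library's own size factor, as the values themselves show, being whole multiples of a step within 0.001. In 4 libraries the step is within 1% of 1, and whole reads are claimed for the other 11. The mm10 build, DESeq2 2.1.8.3 and Bowtie2 2.3.2.2 are listed, with no roles, per the submitters' processing notes. For the counter, annotation, strand setting and gene filter, sources used here give nothing. All 15569 symbols matched GENCODE M21 (GRCm38), the source of coordinates and classes.

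R 4.3.3 with limma 3.58.1 (trend and robust) fitted log2(value + 1) in all 15 libraries with 4 group means. filterByExpr of edgeR 4.0.16 removed 13 genes and left 15556. A call is an adjusted p under 0.05 (Benjamini-Hochberg, over all of them), and fold changes, which the pseudocount of 1 understates for low genes, carry the SE of the fit. Library measures were compared by two-sided exact permutation tests (scipy 1.17.1). Alternatives included voom, edgeR and DESeq2 1.42.0 on recovered reads, other scalings, pseudocounts, filters, a GC correction, the library number as a block, and each library left out. Methods were tested on simulated data.

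Named were the 12 largest called rises and falls whose mean over the 8 libraries reached 10 (only 10 falls did), the 20 called list members of smallest p, up to 3 called genes in each direction against a single exposure, and Dbpht2, Thoc2, Rragb and list markers. Of the genes so chosen, 1 is not reported here. The comparison, lists and rule were chosen with earlier results of these data known. Without molecular identifiers, reads are not separate molecules, and depth speaks to counting error alone.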

Additional observations from a re-analysis of the deposited data

Results flagged for a closer look

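In 120 groups of 4 values examined (2 groups for each named gene and library measure), 11 had 1 library far from the other 3 by Dixon's ratio at its 95% critical value, and chance flags about 1 in 20 groups. Control library 1 was high for Cyp26b1 (16.6, the others 7.86 to 9.29), Kcna3 (30.0, the others 8.85 to 10.6) and Klhl11 (78.7, the others 31.0 to 37.2), each toward the mixture. Control library 2 was high for Col1a1 (117, the others 73.4 to 76.7) and low for Rragb (918, the others 943 to 947). Mixture library 1 was low for Kcnc2 (232, the others 320 to 334) and mixture library 2 for Stx1a (167, the others 216 to 223). Among library measures, control library 3 had 27.9% of its signal in the 50 highest genes (the others 30.1% to 30.5%). As median log2 differences of a list from the control mean, control library 2 was at 0.182 for vessel genes (the others -0.0822 to -0.0651). It was at -0.92 for immature neuron genes (the others 0.218 to 0.292). Mixture library 4 was at -0.231 for medium spiny neuron genes (the others -0.0961 to -0.0794).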

How the results depend on the processing

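The main fit called 185 genes for the mixture against control, 174 higher and 11 lower. The count fell to 51 (42 higher) in limma without trend and robust, and to 23 (23 higher, 0 lower) with the cortical score as covariate. It rose to 300 with DESeq2 (268 higher, 32 lower). The falls numbered 24 with only the libraries of both groups and 26 after removing a GC trend. Leaving out 1 library gave 52 to 164 calls, 52 to 159 higher and 0 to 6 lower, fewest without mixture library 3 and most without control library 3. Same-numbered control and mixture libraries did not vary together (correlations of deviations -0.159 to -0.08, against -0.268 to 0.226 for other pairs). Pairs with the single exposures were not examined. The replicate block gave 290 calls (266 higher, 24 lower), and with the GC correction 392 (337 higher, 55 lower). With the block 1 myelin gene was called higher, and 1 medium spiny marker and 1 retinoic acid gene lower. Those lower calls may be of the same gene, since Rarb is on both lists. Other scalings, pseudocounts and filters, voom and edgeR gave 151 to 195 calls. Against paraquat the 1 call (1 higher, 0 lower) became 8 (7 higher, 1 lower) with only both groups, and 0 to 3 with 1 library left out (0 to 2 higher, 0 to 1 lower). Against TiO2 the 0 calls became 5 with the block (3 higher, 2 lower) and 0 to 14 with 1 library left out (0 to 10 higher, 0 to 4 lower), 14 without TiO2 library 4. The covariate and the left-out fits against a single exposure were chosen after seeing the data. No named change that was called in the main fit reversed. The cause of these differences was not tested. Precision is limited by 4 libraries a group and, for genes near 10, by few reads.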
